A study of Rattus norvegicus with 6 samples.

Results

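The 10 genes described here encode the machinery by which a skeletal muscle fibre turns electrical excitation into calcium release. They are Atp2a1, Ryr1, Cacna1s, Casq1, Casq2, Trdn, Jph1, Jph2, Cacng1 and Pvalb, taken by gene symbol, and all 10 were among the 15388 genes of the count tables. They were chosen with the difference between the groups in these same libraries already known. Their values in that comparison are therefore given as a description, without p-values. The samples were thyroid tissue of adult Sprague-Dawley rats, either non-pregnant (NP) or on day 18 of pregnancy (late pregnancy, LP), with 3 RNA-seq libraries of poly(A) RNA in each group. No genotype or drug treatment separated the groups. Whether a library came from 1 animal or from a pool, and how the gland was trimmed from the tissue around it, is not given in the sources used here.

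In a skeletal muscle fibre, an action potential runs along the surface membrane and into the transverse tubules. There the voltage sensor, an L-type calcium channel, acts on the ryanodine receptor of the adjoining sarcoplasmic reticulum, and stored calcium flows out and starts contraction. Junctophilins hold both membranes together in a structure called the triad. Triadin and calsequestrin sit inside the store beside the release channel, the SERCA pump returns calcium to the store, and parvalbumin binds calcium in the cytosol of fast fibres. Most of these genes are known as markers of striated muscle and not of the thyroid follicle.

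The libraries held between 2752144 and 3449857 counted reads, so 3 reads of a gene, used here as the limit of detection, lay between 0.87 and 1.09 CPM. CPM are reads scaled to a common library size, here scaled by TMM, which sets the libraries to a common scale on the genes that change least. The 3 read limit and all intervals below cover counting error only. In each group, the libraries of replicates 2 and 3 agreed within the noise of drawing reads (chi-square per degree of freedom 1.02 for NP and 0.995 for LP). They were counted as 1 sample in each mean ± SD, which thus has n = 2. The edgeR tests below and their standard errors instead took all 6 libraries as deposited, 3 against 3. These tests thus counted replicates 2 and 3 separately. Their p-values measure the spread between these libraries, which may be technical. Replicate 1 stood apart in both groups. Its summed level of 6 smooth muscle markers was 265.6 CPM in NP and 203.8 CPM in LP, against 1595 to 1713 CPM in the other 4 libraries. The thyroid label held in all 6 libraries, with 230631 to 257469 CPM on 8 genes of the thyroid follicular cell. Tg alone took 223051 to 249786 CPM of this sum. None of the 8 changed more than 2-fold, but they were not all level. Slc5a5 and Tshr were lower in every LP library than in any NP library (edgeR log2 fold changes -0.94 and -0.68). Nkx2-1 and Duox2 were higher in every LP library (0.28 and 0.29).

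The 10 genes together took 80, 138 and 117 reads in NP replicates 1, 2 and 3, and 6929, 7058 and 7146 reads in LP replicates 1, 2 and 3. This was 28.6 to 45.2 CPM in NP and 2092 to 2213 CPM in LP, and the groups did not overlap. The ratio of the group means was 61.4, with 77.4 within replicate 1 and 50.4 within replicates 2 and 3. Without Atp2a1, which had the most reads, it was 31.5. In bulk tissue, more cells of a type and more RNA per cell cannot be told apart. Of the 10 genes, 8 passed the filter on low counts and Casq1 and Casq2 did not. All 8 were higher in LP and met the study's criteria, which ask for more than a 2-fold difference with p under 0.05 after adjustment (edgeR, quasi-likelihood). Over all 11738 genes tested, 4.9% met the criteria with a higher level in LP. As the genes were chosen on this comparison, nothing is read from their count. Moreover, 5 of the 8 reached the level of the filter in no NP library and passed through their LP libraries alone, so that they had to differ. Jph2 reached it in 2 NP libraries, and Atp2a1 and Jph1 in all 3.

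**Figure D1:**
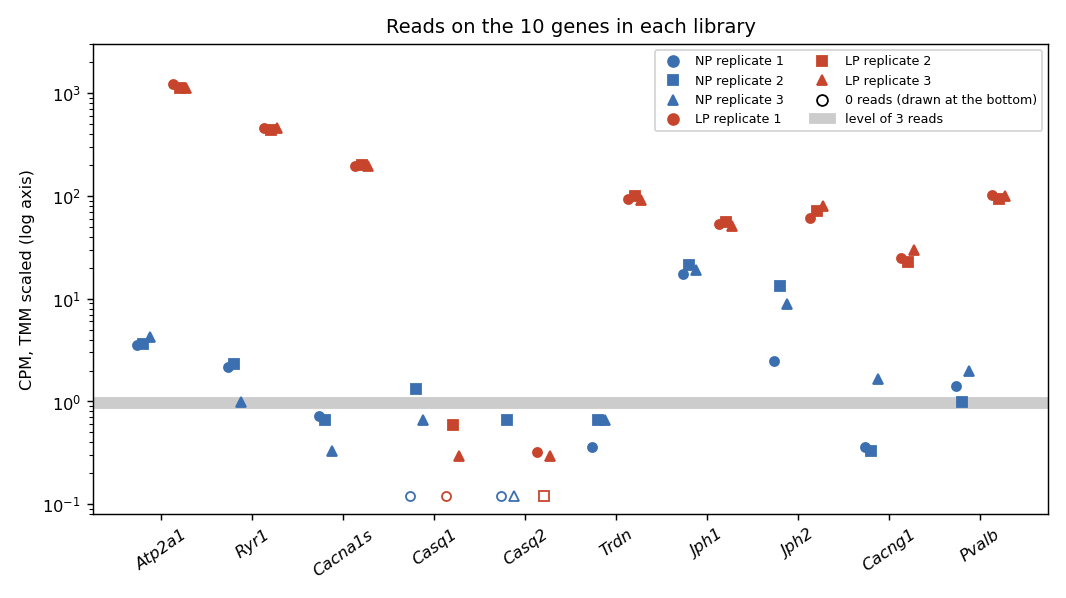
Level of each of the 10 genes in each library in CPM on a log axis, with NP in blue and LP in red, the symbol giving the replicate, open symbols standing for 0 reads and the grey band marking the level of 3 reads. For 8 genes every LP point lies above every NP point, while Casq1 and Casq2 lie near or under the band in both groups.

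Cacna1s (ENSRNOT00000074366), the pore-forming subunit and voltage sensor of the L-type channel of skeletal muscle, was counted 2, 2 and 1 times in the NP libraries, replicates 1 to 3 in order, and 613, 668 and 657 times in the LP libraries. No NP library was above the level of 3 reads, and the LP libraries lay between 194.9 and 198.0 CPM. The pooled ratio was 349 (95% counting interval 149 to 1077), and edgeR's log2 fold change 8.35 (standard error, SE, 0.14). The edgeR SE is size over root F, and DESeq2, an alternative fit, gave an SE of 0.65. This was the highest fold change of the 8 genes tested, at rank 17 among all genes tested. Its counting interval overlaps that of Atp2a1 (215 to 435), so the order of these genes is not resolved. Cacng1 (ENSRNOT00000004349), the gamma subunit of the same channel, had 1, 1 and 5 reads in the NP libraries against 77, 77 and 100 in LP. Its groups were separate, at 0.671 ± 0.44 CPM (SD, n = 2) against 25.4 ± 1.2 CPM. Its log2 fold change was 4.96 (SE 0.33), and it was 6.07 without NP replicate 3, which held 5 of the 7 NP reads.

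Ryr1 (ENSRNOT00000079473), the calcium release channel, was counted 6, 7 and 3 times in NP and 1439, 1485 and 1524 times in LP. All LP libraries were thus far above all NP libraries, at 453 ± 9.5 CPM (SD, n = 2) against 1.89 ± 0.36 CPM. The log2 fold change was 7.94 (SE 0.12, against 0.37 in DESeq2) and the pooled ratio 250.5 (95% counting interval 154 to 439). Trdn (ENSRNOT00000090388), triadin, which anchors calsequestrin at the release channel, was counted 1, 2 and 2 times in NP and 294, 333 and 306 times in LP. Again no NP library exceeded 3 reads. The pooled ratio was 168 (95% counting interval 71.8 to 519) and the log2 fold change 7.30 (SE 0.19, against 0.66 in DESeq2).

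Atp2a1 (ENSRNOT00000074778), the SERCA1 pump of fast fibres, had the most reads of the 10 genes. The NP libraries held 10, 11 and 13 reads and the LP libraries 3825, 3745 and 3782. All LP libraries were far above, at 1169 ± 75 CPM (SD, n = 2) against 3.76 ± 0.26 CPM. The log2 fold change was 8.22 (SE 0.086), the smallest SE of the 8, and the pooled ratio 301 (95% counting interval 215 to 435). In the RefSeq annotation, which is of another build than the counts, the span of Atp2a1 overlaps that of Rabep2, and how reads of such an overlap were assigned was not tested. The spans of Ryr1, Cacna1s, Trdn, Jph1 and Cacng1 each overlap 1 uncharacterised gene, noncoding RNA or pseudogene there, and their counts carry the same uncertainty. Pvalb (ENSRNOT00000067635), parvalbumin, was counted 4, 3 and 6 times in NP and 320, 317 and 333 times in LP, again with no overlap. Its log2 fold change was 6.03 (SE 0.16), and its ratio was nearly the same within replicate 1 (71.5) and within replicates 2 and 3 (65.3).

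The junctophilins had an NP level that was a larger part of their LP level than for the genes above. Jph1 (ENSRNOT00000008153), the junctophilin of skeletal muscle, was counted 49, 65 and 58 times in NP and 168, 188 and 172 times in LP. The groups did not overlap, at 18.8 ± 1.9 CPM (SD, n = 2) and 53.5 ± 0.20 CPM, and the log2 fold change of 1.47 (SE 0.11) was the lowest of the 8, at rank 384 of the genes tested. The pooled NP level was 36.2% of that in LP, against 0.286% for Cacna1s, 0.332% for Atp2a1 and 0.399% for Ryr1. Jph2 (ENSRNOT00000010939), which is known from heart, skeletal and smooth muscle, was counted 7, 41 and 27 times in NP and 192, 243 and 270 times in LP. In both groups replicate 1 was the lowest library, as it was for the smooth muscle markers. The ratio of LP to NP was 24.5 within replicate 1 and 6.82 within replicates 2 and 3, so the size of the ratio depended on the replicate. The difference was closer, at 58.8 CPM within replicate 1 and 64.9 CPM within replicates 2 and 3. Its log2 fold change was 3.08 (SE 0.225), with 2.67 without NP replicate 1 and 3.60 without NP replicate 2. The part of the smooth muscle genes in this spread was not tested.

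**Figure D2:**
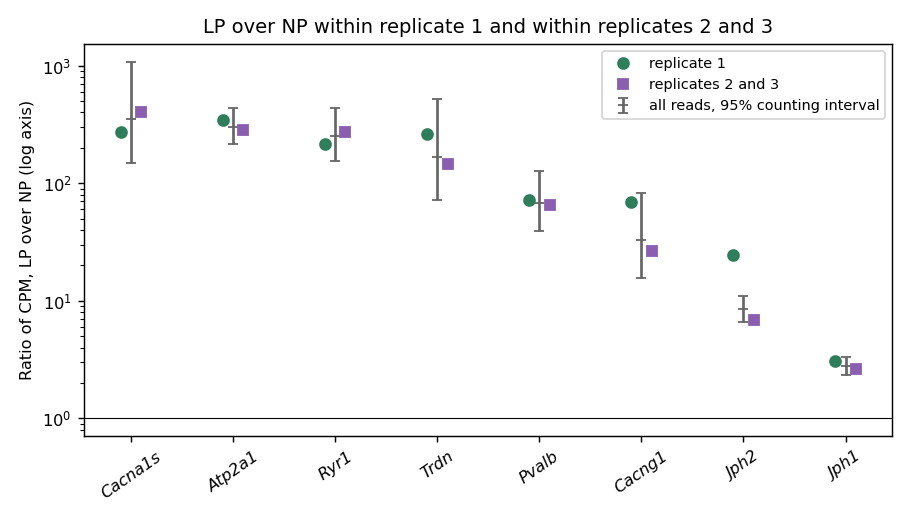
Ratio of CPM in LP over NP on a log axis for the 8 genes that passed the filter, within replicate 1 (green circles), within replicates 2 and 3 (purple squares) and over all reads (grey, with the 95% counting interval). For Jph2 both values, 24.5 and 6.82, are far apart and the first lies outside the counting interval, while for Atp2a1, Ryr1 and Pvalb they lie within it.

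Calsequestrin did not share the pattern. Casq1 (ENSRNOT00000009344) encodes the calsequestrin of skeletal muscle, the main calcium binding protein inside the store of fast fibres. It was counted 0, 4 and 2 times in NP and 0, 2 and 1 times in LP, and the groups overlapped. The 3 LP reads allow at most 0.888 CPM (exact Poisson 95% upper limit), whereas Trdn, its partner in the store, had 94.3 ± 0.59 CPM (SD, n = 2) in the same libraries. Casq2 (ENSRNOT00000021846), the calsequestrin of heart and slow fibres, was counted 0, 2 and 0 times in NP and 1, 0 and 1 times in LP, which allows at most 0.732 CPM in LP. Both genes were at or near the smallest level the depth can show in both groups, so no fold change is given and a difference between the groups was not detectable at these counts. In the RefSeq annotation no other gene overlaps either of them. The reads behind the counts were not used here, so whether reads of Casq1 were lost in mapping or counting was not tested, and a low count need not mean a low level of its RNA.

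The make-up of the reads differed accordingly. Atp2a1 took 52.9% to 55.2% of the reads on the 10 genes in the LP libraries and 7.97% to 12.5% in the NP libraries. Ryr1 took 20.8% to 21.3% in LP and 2.56% to 7.50% in NP. Jph1 went the other way, with 47.1% to 61.3% of the few NP reads and 2.41% to 2.66% of the LP reads. For most of the 8 genes tested the level varied little across the 3 LP libraries, with a coefficient of variation of 0.806% for Cacna1s, 2.18% for Ryr1 and 5.33% for Atp2a1. It was 13.2% for Jph2 and 13.8% for Cacng1, which had 705 and 254 LP reads in all, against 1938 for Cacna1s. Counting error is part of these values and weighs more where reads are few. Replicates 2 and 3 enter as separate libraries here. A difference in variability between the genes was not tested.

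**Figure D3:**
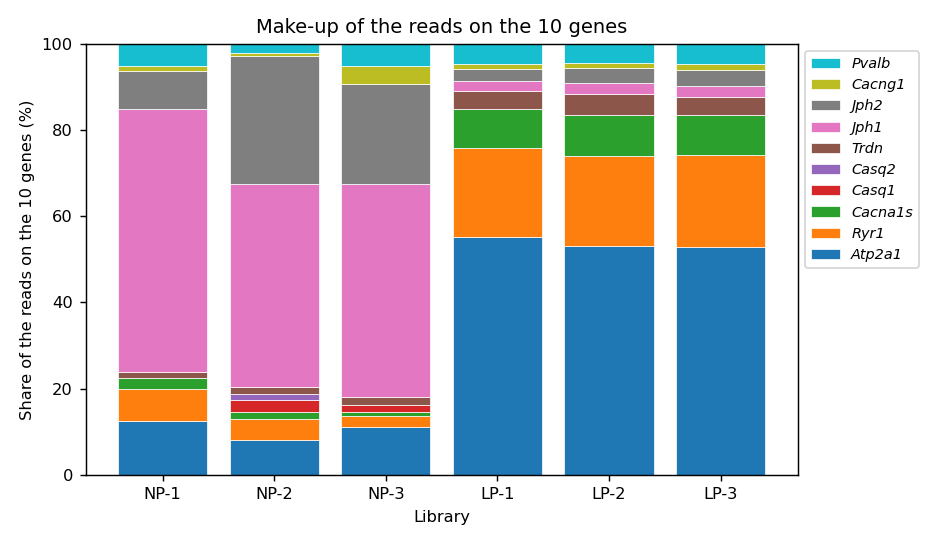
Share of the reads on the 10 genes taken by each gene, in percent, with 1 bar for each library. The 3 LP bars are alike and over 52% Atp2a1, while Jph1 is the largest part of each NP bar, each of which rests on 80 to 138 reads.

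As 8 of the 10 genes were higher in the same libraries, the 250 bases before the start sites of the 10 were examined. A promoter was matched by symbol in RefSeq (build GRCr8) for 8 of the 10. These are not the 8 higher genes, as Jph1 and Cacng1 had no match while Casq1 and Casq2 did. The windows of Trdn, Jph2 and Pvalb lie inside the RefSeq span of their own gene, so the start used is not the outermost. The motifs found or missing there depend on that start. The motifs searched on both strands were the E-box CANNTG and its form CAGCTG, the letters known to be bound by myogenic factors, the MEF2 motif, the CArG box, the TATA box TATAAA, the CCAAT box and the run GGGAGGG. The form CAGCTG is contained in CANNTG. Windows with CANNTG were found for 6 of the 8 genes with a promoter, against 65.5% of all 33469 promoters of the table. These 6 were Ryr1, Atp2a1, Pvalb, Cacna1s, Casq1 and Casq2. Windows with CAGCTG were found for 3 of the 8, against 12.0%. These 3 windows are shown, because the counts of Atp2a1 and Cacna1s were high in LP and that of Casq1 was not. They are chr1:190475411-190475660 on the minus strand, chr13:50045418-50045667 on the plus strand and chr13:87212711-87212960 on the minus strand, each written 5′ to 3′ along the gene, and capitals mark each CANNTG.
Atp2a1: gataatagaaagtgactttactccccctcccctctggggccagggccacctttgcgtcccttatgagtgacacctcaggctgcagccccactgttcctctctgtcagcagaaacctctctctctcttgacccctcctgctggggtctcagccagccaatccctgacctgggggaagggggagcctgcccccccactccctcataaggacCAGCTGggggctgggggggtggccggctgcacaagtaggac
Cacna1s: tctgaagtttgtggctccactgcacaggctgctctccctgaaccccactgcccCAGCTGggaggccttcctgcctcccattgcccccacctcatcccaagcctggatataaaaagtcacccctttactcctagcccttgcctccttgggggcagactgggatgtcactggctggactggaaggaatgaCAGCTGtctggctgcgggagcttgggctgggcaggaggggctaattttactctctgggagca
Casq1: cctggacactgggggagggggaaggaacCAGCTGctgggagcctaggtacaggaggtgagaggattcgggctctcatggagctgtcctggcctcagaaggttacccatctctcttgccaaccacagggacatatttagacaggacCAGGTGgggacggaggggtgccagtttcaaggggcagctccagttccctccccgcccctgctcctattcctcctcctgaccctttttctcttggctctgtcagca
CAGCTG began 41 bases before the start of Atp2a1, 197 and 62 bases before that of Cacna1s, and 222 bases before that of Casq1. It was thus present both in windows of genes with high counts in LP and in that of a gene counted at the limit of detection. A low count of Casq1 need not mean a low level of its RNA, so nothing is read from this. TATAAA was found for Cacna1s, against 12.9% of all promoters. CCAAT was found for Ryr1 and Atp2a1, against 34.0%, and GGGAGGG for Atp2a1 and Casq1, against 18.7%. The MEF2 motif was found for Casq2, against 3.0%, and the CArG box for none of the 8, against 1.5%. A match is a description of these letters and not a binding site.

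The other genes of the pathway were taken from lists written for this comparison. Of 21 genes of membrane excitation, 16 were matched by symbol and 14 tested, and 11 rose past the criteria while none fell, against 4.9% and 0.537% of all genes tested. Their median log2 fold change was 3.06, against -0.01 over all genes tested. All 14 had every LP library above every NP library, which held for 21.1% of all genes tested. The lists too were chosen with these results known, and 4 of the 14 genes reached the level of the filter in no NP library and in every LP library, so that they had to differ. Nothing is read from the distance to the background. Scn4a, the sodium channel of the muscle action potential, was counted 10, 8 and 8 times in NP and 191, 214 and 212 times in LP, and rose by 4.40 on the log2 scale (adjusted p = 4.05e-13, edgeR, quasi-likelihood, Benjamini-Hochberg). Stac3, an adaptor that the skeletal muscle voltage sensor needs, rose from 1, 2 and 1 reads to 132, 119 and 119. Clcn1, the chloride channel that steadies the muscle membrane, rose from 0, 1 and 1 reads to 77, 73 and 77. Cav3, the caveolin of muscle, rose from 0, 1 and 0 reads to 78, 107 and 93, so that its fold change hangs on a single NP read. The other subunits of the voltage sensor also rose, with log2 fold changes of 1.98 for Cacnb1, 2.84 for Cacna2d1 and 3.27 for Cacng6. That of Cacng6 was 4.21 without NP replicate 3. Bin1, which shapes the transverse tubule, and Kcnj11, a potassium channel pore, rose by 2.35 and 1.51. Kcnj2, Dysf and Mtm1 were below 2-fold, with log2 fold changes of 0.72, 0.44 and 0.46 (adjusted p = 0.0037, 0.000117 and 0.000878, edgeR). Chrnb1 and Musk, of the neuromuscular junction, were below the filter, with 0, 3 and 2 against 7, 6 and 2 reads for Chrnb1. Musk had 0 reads in each NP library and 3, 5 and 4 in LP.

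Of 20 genes of the sarcoplasmic reticulum and its scaffold, 19 were matched and 16 tested, and 11 rose past the criteria while none fell, against 4.9% and 0.537% of all genes tested. Of the 16, 4 had to differ because of the filter. The median log2 fold change was 3.97. Hrc, a calcium binding protein inside the store, rose from 9, 6 and 3 reads to 1188, 1166 and 1147, or by 7.43 on the log2 scale (adjusted p = 6.04e-17, edgeR). Srl, sarcalumenin, a further calcium binding protein of the store, rose by 6.01 on the log2 scale (adjusted p = 6.81e-17, edgeR). Jsrp1, which binds the voltage sensor and triad proteins, rose from 2, 3 and 0 reads to 169, 181 and 163. Sln, sarcolipin, an inhibitor of the SERCA pump, rose from 0, 1 and 0 reads to 111, 104 and 125, and its fold change too hangs on a single NP read. Trim72, a membrane repair protein of muscle, rose from 2, 2 and 3 reads to 267, 289 and 310. Tmem38a, the potassium channel of the muscle reticulum, was at 18.5 ± 3.3 CPM in NP and 274 ± 18 CPM (SD, n = 2) in LP, higher by 3.80 on the log2 scale (adjusted p = 3.72e-15, edgeR). Its relative Tmem38b, which is found in many tissues, had a log2 fold change of 0.40 (adjusted p = 0.049, edgeR). Sypl2, a triad membrane protein, Ank1, whose short form sits in the reticulum membrane, Speg, a kinase of the triad, and Homer2, a scaffold protein, rose by 4.19, 4.14, 2.12 and 1.63. The adjusted p-value of Homer2, 0.00265, became 0.406 when its fold change was itself tested against 2 in edgeR. Asph, which encodes junctin among other products, had a log2 fold change of 0.091 (adjusted p = 0.43, edgeR), and its counts do not tell these products apart. Fkbp1a, which binds the release channel and is found in all cells, had -0.20 (adjusted p = 0.0316, edgeR). Jph3 and Jph4, junctophilins known from brain, had log2 fold changes of 0.23 and 0.048 (adjusted p = 0.497 and 0.939, edgeR). Pln and Fkbp1b were below the filter, as was Homer1.

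**Figure D4:**
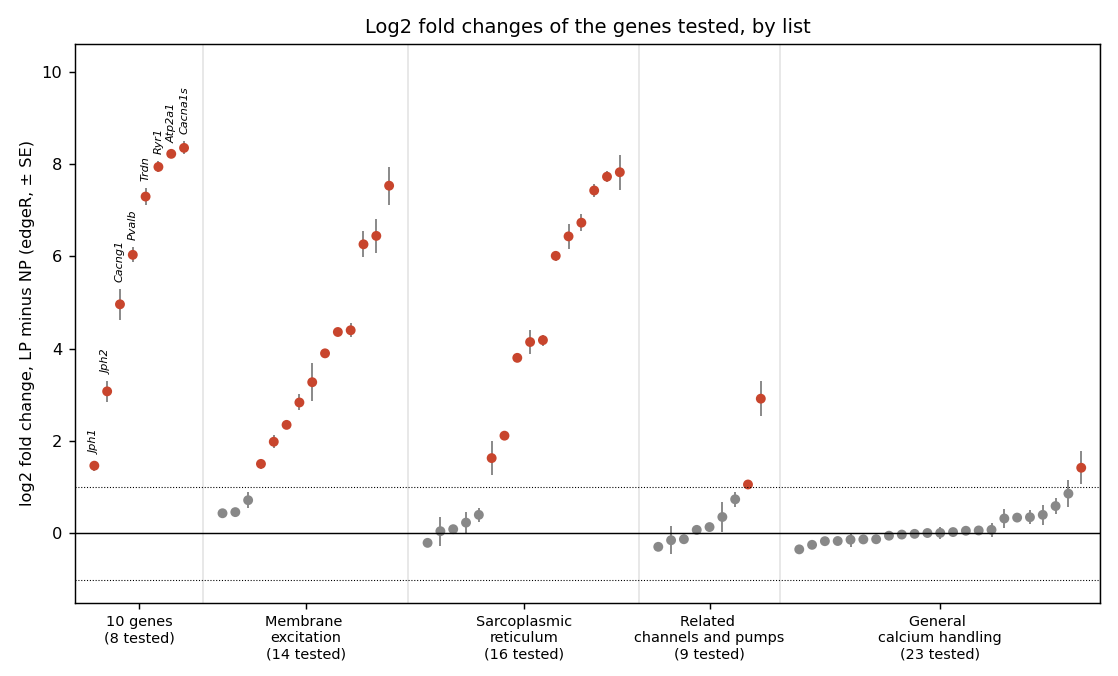
Log2 fold change of LP against NP from edgeR with its standard error for each gene that passed the filter, sorted within 5 lists, with dotted lines at a 2-fold change, genes past the criteria in red and symbols given for the 8 genes described here. These 8 and the lists of membrane excitation and of the sarcoplasmic reticulum reach 8.35, 7.53 and 7.82, while the genes of general calcium handling lie between -0.35 and 1.42. The standard errors are size over root F and understate the uncertainty where NP reads are few.

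Of 15 paralogs of the 10 genes, 12 were matched and 9 tested. Cacng6, which rose past the criteria, and Jph3 and Jph4, which did not, are relatives too. They were counted in the lists above, so the counts here do not cover every relative. Past the criteria were 2 (22.2%, against 4.9% of all genes tested), both higher in LP, and the median log2 fold change was 0.14. Of the 9, 1 had to differ because of the filter, which was Cacng4, and nothing is read from this share. Atp2a2, the SERCA2 pump of slow fibres, heart and most other cells, was counted 148, 197 and 231 times in NP and 380, 488 and 464 times in LP. Its log2 fold change of 1.06 (SE 0.097, adjusted p = 1.89e-07, edgeR) stood beside 8.22 for Atp2a1, and it was 0.94, under the cutoff, without NP replicate 1. Atp2a3, the SERCA3 pump, had -0.29 (adjusted p = 0.00301, edgeR). Ryr3, a release channel of brain and some muscles, had 0.74 (adjusted p = 0.00284, edgeR), under the cutoff and beside 7.94 for Ryr1. Ryr2, the release channel of heart, was below the filter, with 6, 7 and 2 reads against 5, 0 and 10. Cacna1c and Cacna1d, the L-type channels of heart, smooth muscle and endocrine cells, had 0.36 and 0.077 (adjusted p = 0.486 and 0.598, edgeR), beside 8.35 for Cacna1s. Cacna1c, like Jph2, was lowest in replicate 1 of both groups, with 17, 45 and 40 reads against 21, 50 and 74. The inositol trisphosphate receptors, which release calcium in most other cells, had -0.13 for Itpr1 and 0.14 for Itpr3 (adjusted p = 0.111 and 0.099, edgeR). Among the gamma subunits, Cacng4 rose by 2.92 (SE 0.38) from 3, 2 and 4 reads to 29, 20 and 29. As it passed the filter through its LP libraries alone, no p-value is given. Cacng7 had -0.15 (adjusted p = 0.79, edgeR), and Cacng5 was below the filter, with 6, 15 and 11 reads against 2, 2 and 4. These differences between relatives are given side by side, and no test of them was made.

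Of 25 genes of general calcium handling, 23 were tested and 1 met the criteria (4.35%, against 4.9% of all genes tested), which was Slc8a3, a sodium/calcium exchanger of muscle and brain. It rose from 3, 11 and 9 reads to 19, 19 and 31, or by 1.42 on the log2 scale (adjusted p = 0.00701, edgeR), and without LP replicate 3 its adjusted p-value was 0.0576. The median of the 23 genes was 0.01. Calr, calreticulin, a calcium binding protein of the endoplasmic reticulum and the gene of the list with the most reads, had a log2 fold change of -0.35 (adjusted p = 1.21e-07, edgeR), under the cutoff.

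The sarcomere, the contractile apparatus that the released calcium acts on, was also higher in LP. The list used holds 24 genes of skeletal muscle, mostly of the sarcomere but with metabolic genes such as Pygm. Of the 24, 18 were matched and 15 tested, and 13 rose past the criteria, against 4.9% of all genes tested. Of the 15, 9 had to differ because of the filter. The summed level of the 18 was 34.0 to 89.1 CPM in NP and 4807 to 5059 CPM in LP. Acta1, the actin of skeletal muscle, was not among the 13. The NP libraries held 0, 166 and 144 of its reads and the LP libraries 0, 186 and 185, with 0 in replicate 1 of both groups. Pygm, the glycogen phosphorylase of muscle, likewise had 0, 18 and 7 against 0, 15 and 19 reads, and Mybpc2, a myosin binding protein of fast fibres, had 0, 1 and 3 against 0, 1 and 1. As with Casq1, no higher level in LP was seen in the counts of these 3 genes. LP replicate 1, with 0 reads of Acta1 and Pygm, held 4554 reads of Tnnc2, the troponin C of fast fibres. Whether reads of these genes too were lost in mapping or counting was not tested. The 5 tested genes of the fast fibre list and the 4 of the slow fibre list all rose past the criteria, against 4.9% of all genes tested. Their median log2 fold changes were 7.63 and 7.25. Of these, 3 of the 5 fast fibre genes and all 4 slow fibre genes had to differ because of the filter. The 5 fast fibre genes, and Tnni1 and Tnnt1 of the slow fibre list, are also among the sarcomere genes above. Of the fast fibre genes, Myh1, a fast myosin, had 0 reads in each NP library and 119, 105 and 109 in LP. The 4 matched heart muscle genes summed to 0.66 to 1.31 CPM in NP and 1.48 to 2.97 CPM in LP. Myl7 had 0 reads in each NP library and 0, 1 and 1 in LP. None of the 4 passed the filter on low counts, so a difference between the groups was not tested. None of the 6 smooth muscle genes met the criteria. Of 6 Schwann cell genes, 5 were tested and 1 rose past the criteria. The part of muscle or nerve tissue beside the gland in the levels of the 10 genes was not tested.

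Among genes on none of these lists, the 5 whose pattern over the 6 libraries lay nearest to the median pattern of the 8 genes (Euclidean distance of centred log2(CPM + 1), 0.263 to 0.453) were Smyd1, Lmod3, Klhl41, Murc and Kcna7. Smyd1, a muscle methyltransferase, had 0 reads in each NP library and 160, 164 and 169 in LP. Lmod3, a leiomodin of the thin filament, had 0 reads in each NP library and 176, 143 and 167 in LP, and Murc, a caveola protein of muscle, 0 reads against 127, 149 and 142. Kcna7, a potassium channel, had 0, 1 and 1 reads against 172, 152 and 182, and Klhl41, a kelch protein of the sarcomere, 10, 8 and 11 against 609, 623 and 609. The 6 points fall into the groups NP and LP, so this likeness is mostly that of 1 difference.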

How the data were processed

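RNA-seq was performed on thyroid tissue, with 3 libraries from NP and 3 from LP rats. Per the paper's methods and the labels, the authors used TopHat 1.4.0 for mapping to build rn5, counted them on gene models of Ensembl release 81 with HTSeq-count, and deposited raw counts per gene, without normalization. The rule that left a single transcript identifier per gene is not given in the sources used here.

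Differences were tested on the deposited counts with edgeR 4.0.16 under R 4.3.3 (quasi-likelihood test, TMM, default filter, Benjamini-Hochberg adjustment over the 11738 genes tested) and, as an alternative, DESeq2 1.42.0. The SE of a log2 fold change was taken from its size and the F statistic, as size over root F. Where NP reads were few, it was smaller than the SE of DESeq2, as for Cacna1s (0.14 against 0.65). It does not measure the counting error of such fold changes. The 10 genes and all lists were chosen with earlier results of these data known. The genes named are the 10 genes, tested relatives, listed genes by their call, and the 5 nearest patterns, and some genes that this rule takes are not reported here. Same-numbered libraries deviated together from their group means (r = 0.483, 0.216 and 0.183 for replicates 1, 2 and 3), so an alternative took the labels' replicate number as a block. Deviations from a shared mean depend on each other, so replicate 1 alone can make the values of replicates 2 and 3 positive. A pairing of replicates 2 and 3 by number was therefore not shown. The fits were tested on simulated counts. Sequences are from RefSeq, GRCr8. Gene lengths were not used, so levels were not compared between genes as transcript numbers.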

Additional observations from a re-analysis of the deposited data

How the results depend on the processing

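All 8 tested genes of the 10 met the criteria under each alternative (DESeq2's size factors, TMM without the muscle genes, no filter, DESeq2, the replicate block, replicates 2 and 3 summed, the fold change tested against 2, each library left out in turn, and both replicate 1 libraries left out, the last chosen after seeing the data), except that 7 were tested with a mean of at least 50 reads, and these 7 met them. With the replicate block, 641 genes of all those tested met the criteria, against 638 without it, and the lists gave 11, 11, 2 and 1, as without it, so the block changed no call of the 10 genes and of these 4 lists, and the other genes were not followed under it. With a mean of at least 50 reads, 315 of all genes, 1 of the relatives and 0 of general calcium handling met them, as fewer genes were tested, and with the fold change tested against 2 they were 389, 1 and 0, and Homer2 and Atp2a2 were lost. With each library left out, general calcium handling gave 0 (without LP replicate 3) to 2 genes (with Slc8a1, without NP replicate 2). The relatives gave 2 to 3, with Cacng5, then past the filter, lower in LP. The summed ratio was 31.5 without Atp2a1 and 51.7 to 64.5 with each library left out. Folds of genes with few NP reads are limited by depth.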
